A study of Mus musculus with 6 samples.

Results

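A set of 7 secreted antimicrobial or acute phase genes was followed in RAW264.7 macrophages with and without knockdown of Trem2. Slpi, Lcn2, Saa3, Lyz1, Lyz2, Camp and Ltf make up the set, out of 56092 gene symbols in the count table. The set was chosen by the strong falls of Slpi and Lcn2 in the same contrast that is described here, so the levels and fold changes of these genes are a description and carry no p-value. In the fitted comparison Slpi was 17.2-fold lower and Saa3 2.64-fold lower with shTrem2, and Lcn2 was left with at most 2 reads per library. The lysozyme genes Lyz1 and Lyz2 were 4.78-fold and 2.63-fold higher. Camp and Ltf had no count in any of the 6 libraries.

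The study asked what Trem2, a lipid-sensing receptor of myeloid cells, does in macrophages that take up debris of kidney tubular cells. RNA was sequenced from RAW264.7 cells, a mouse macrophage line of tumour origin, that stably carried a control shRNA (shNC, n = 3) or an shRNA against Trem2 (shTrem2, n = 3). Both groups were first polarized with IL-4 (20 ng/mL, 24 hours) and then given freeze-thawed debris of TCMK-1 tubular cells for a further 24 hours, so every value below is a level under IL-4 and debris, and libraries without either were not analysed here. The shRNAs were delivered by a lentivirus that also carries GFP, and carrier cells were selected with puromycin. Of the pair of Trem2 shRNAs made in the study, the sources used here do not name the one in these libraries, so an effect of the knockdown and an effect of that shRNA or of that selected line cannot be told apart. The labels do not say that replicates came from separate cultures, and the tests therefore measure the spread between these samples, which may be technical. The libraries held between 15876061 and 18088372 named counts in shNC and between 19358113 and 19655158 in shTrem2. The targeted gene was lower in every shTrem2 library, at 63.8, 62.5 and 79.2 CPM (counts-per-million of the named counts of a library) against 116, 124 and 145 CPM in shNC. Per transcript length it stood at 40.1, 38.6 and 46.4 FPKM against 152, 174 and 208 FPKM, so the fall was 4.27-fold in mean FPKM and 1.87-fold in mean CPM.

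Slpi encodes secretory leukocyte protease inhibitor, a small secreted protein with WAP domains that blocks neutrophil elastase and other serine proteases and also dampens NF-kB signalling in macrophages. Lcn2 encodes lipocalin 2, which starves bacteria of iron by binding their siderophores and is widely used as a marker of kidney injury. Saa3 encodes the serum amyloid A that mouse macrophages and fat cells make in inflammation. Lyz1 and Lyz2 encode the lysozymes, which cut the peptidoglycan of bacterial walls. Camp encodes the precursor of the peptide cathelicidin and Ltf the iron-binding protein lactoferrin, both stored in neutrophil granules. In macrophages, Lcn2, Slpi and Saa3 are known as genes that Toll-like receptor ligands and inflammatory cytokines induce through NF-kB and C/EBP factors, while Lyz2 is expressed throughout the myeloid lineage.

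Because C/EBP and NF-kB factors are known to act on these genes, the sequence just upstream of each gene was searched for their motifs. RefSeq windows from 250 bases before to 50 bases after the start were available for all 7 genes on GRCm38.p6, whereas the deposited data were aligned to GRCm39. The C/EBP motif TTGCNNAA, searched on both strands, had a match in 5 of the 7 windows, and 10.8% of all 32851 windows held one. The 5 matches are shown because they are the sequence feature that the genes that fell share with Lyz1, which rose. Each line gives 30 bases read 5′ to 3′ in the direction of the gene, with the match in capitals.
Slpi, chr2:164356728-164356757, minus strand: gaatttgtaTTGAGCAAtaggttagagttt
Lcn2, chr2:32387937-32387966, minus strand: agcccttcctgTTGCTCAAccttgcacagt
Saa3, chr7:46715757-46715786, minus strand: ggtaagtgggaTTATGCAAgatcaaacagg
Lyz1, chr10:117293059-117293088, minus strand: gagcccaatctTTAAGCAAtttgaaataaa
Ltf, chr9:111019206-111019235, plus strand: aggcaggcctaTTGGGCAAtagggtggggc

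The matches began 241 bases before the start in Slpi, 216 in Lcn2, 99 in Saa3, 209 in Lyz1 and 75 in Ltf. Lyz2 and Camp had none. The window of Lcn2 also held a STAT6-type motif, TTC and GAA with 4 bases between, which 6.95% of all windows hold.
Lcn2, chr2:32387876-32387905, minus strand: tgccaagtatTTCAACAGAAtgtactggca

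The NF-kB consensus GGGRNNYYCC (R for A or G, Y for C or T, N for any base), present in 8.46% of all windows, was matched only in Camp among the 7 genes. The AP-1 motif TGANTCA, held by 7.81% of windows, and the STAT motif TTCNNNGAA, held by 8.30%, were matched in none. A match is a string of letters and not a bound site. Sites that differ from the searched string or lie outside the window would be missed, so a missing match does not mean a missing site. The window of Saa3 lies inside the outermost RefSeq boundaries of that gene. Genes that fell and a gene that rose held the same C/EBP motif.

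Slpi (ENSMUSG00000017002, chromosome 2) was the most abundant of the genes that fell. Its level was 66.8, 65.8 and 59.0 CPM in the 3 shNC libraries and 3.19, 3.77 and 3.87 CPM in the 3 shTrem2 libraries, or 63.9 ± 4.20 and 3.61 ± 0.368 (SD, n = 3). The lowest shNC library was far above the highest shTrem2 library. The reads behind these values were 1060, 1170 and 1068 in shNC and 62, 73 and 76 in shTrem2. Per transcript length the level fell from 119 ± 7.74 to 7.05 ± 0.274 FPKM (SD, n = 3), a ratio of 16.8. The fitted log2 fold change was −4.11 ± 0.09 (SE), the 13th lowest of the 13528 genes tested. By FPKM, Slpi ranked between 827 and 974 among the genes of the shNC libraries and between 8392 and 8581 in shTrem2. One transcript row held between 88.0% and 100% of its counts in each library, so the fall was measured in 1 main transcript.

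Lcn2 (ENSMUSG00000026822, chromosome 2) went from a moderate level to the edge of detection. It stood at 16.9, 14.7 and 11.2 CPM in shNC and at 0, 0.0517 and 0.102 CPM in shTrem2. These are 268, 261 and 203 reads in shNC against 0, 1 and 2 reads in shTrem2, and all 3 shTrem2 values lie under the limit of 3 counts that an empty count leaves possible. Scaled to the library sizes, the pooled counts of 732 and 3 gave a level 276-fold lower in shTrem2, with an exact 95% interval from 94.0 to 1340 that covers counting error only. The fitted log2 fold change of −7.90 ± 0.36 (SE) was the lowest of all genes tested. That fitted value depends on the handling of counts near 0, and it moved to −8.74 without shTrem2 replicate 3 and to −7.37 without shTrem2 replicate 1. The SE was derived from the test statistic of the fit. It is narrower than the counting interval, so it understates the uncertainty of Lcn2. By FPKM the gene fell from 28.5, 24.8 and 18.5 to 0, 0.09 and 0.17. The main transcript row held 89.3%, 92.4% and 91.3% of the Lcn2 counts in shNC, with the rest spread over 5 further rows.

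Saa3 (ENSMUSG00000040026, chromosome 7) was lower in shTrem2 with much more scatter. Its level was 5.86, 6.35 and 4.09 CPM in shNC and 1.59, 3.25 and 1.17 CPM in shTrem2, which gives 5.43 ± 1.19 and 2.01 ± 1.10 (SD, n = 3). The groups did not overlap, but shTrem2 replicate 2 came close to shNC replicate 3. The counts were between 74 and 113 in shNC and 31, 63 and 23 in shTrem2. The fitted log2 fold change was −1.40 ± 0.31 (SE), the 471st lowest. It ranged from −1.93 without shTrem2 replicate 2 to −1.14 without shTrem2 replicate 3. The counts lay in 3 transcript rows, and the largest held between 76.1% and 83.8% in every library but shTrem2 replicate 2, where it held 57.7%. The library with the highest Saa3 level in shTrem2 was thus also the one with a different split between transcripts.

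**Figure D1:**
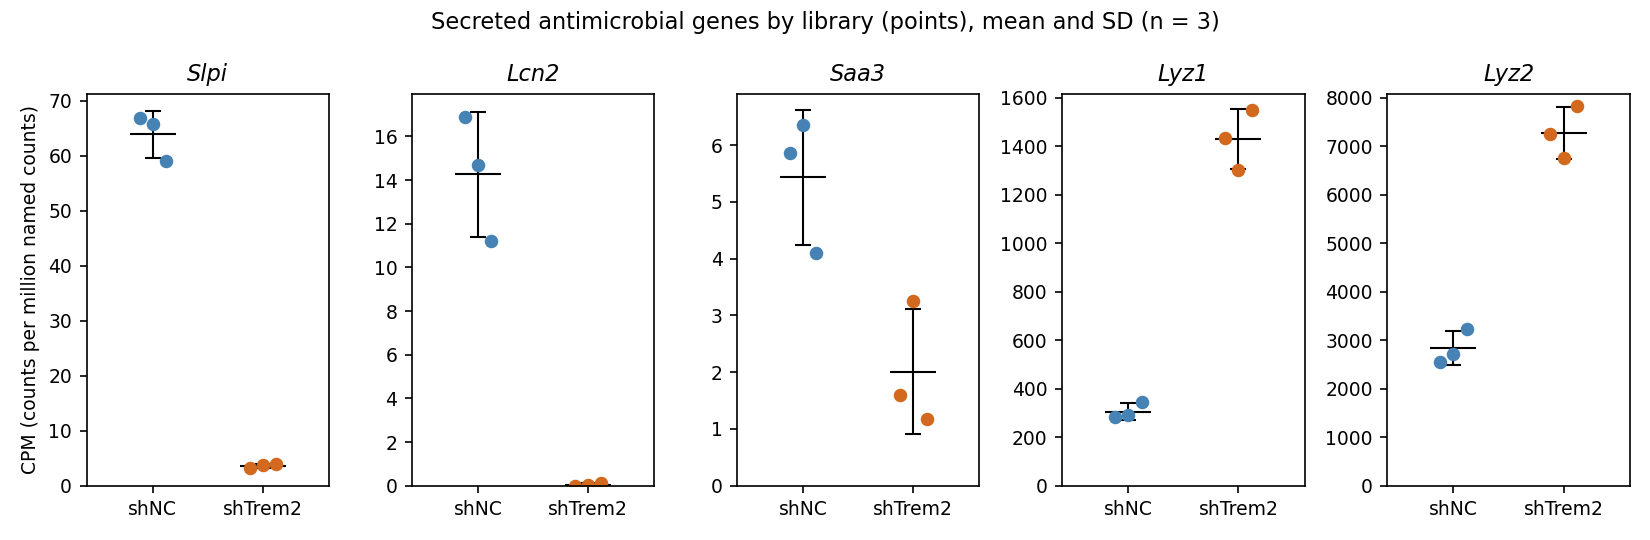
CPM (scaled to the named counts of each library, linear axes from 0) of the 5 detected genes in each library (points), with the mean and SD of the 3 shNC and the 3 shTrem2 libraries (lines and bars). Slpi, Lcn2 and Saa3 lie lower and Lyz1 and Lyz2 higher in every shTrem2 library, and the shTrem2 points of Lcn2 lie at or just above 0.

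The lysozyme genes moved the other way. Lyz2 (ENSMUSG00000069516, chromosome 10), already one of the most abundant transcripts, stood at 2558, 2724 and 3221 CPM in shNC and at 7243, 6750 and 7817 CPM in shTrem2. Lyz1 (ENSMUSG00000069515), its neighbour on chromosome 10, rose from 282, 290 and 345 CPM to 1435, 1301 and 1549 CPM. The groups were 2834 ± 345 and 7270 ± 534 CPM for Lyz2 and 306 ± 34.1 and 1428 ± 124 CPM for Lyz1 (SD, n = 3), with no overlap for either gene. The fitted log2 fold changes were 1.39 ± 0.08 for Lyz2 and 2.26 ± 0.08 for Lyz1 (SE). Lyz1 had the 62nd highest fold change of the 13528 tested genes and Lyz2 the 245th. Together the pair took 0.314% ± 0.0379 of the named counts in shNC and 0.870% ± 0.0658 in shTrem2 (SD, n = 3). By FPKM, Lyz2 ranked between 26 and 35 in shNC and between 5 and 7 in shTrem2, and Lyz1 moved from between 288 and 329 to between 74 and 95.

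The deposited values rose more for Lyz1 than for Lyz2. The ratio of Lyz2 to Lyz1 in FPKM was 8.57, 8.90 and 8.85 in shNC and 4.78, 4.91 and 4.77 in shTrem2. Lyz1 thus made up 10.2% ± 0.186 of the FPKM of the pair in shNC and 17.2% ± 0.229 in shTrem2 (SD, n = 3). The ratios of the groups were far apart relative to the spread within each group. The genes are similar copies, and how the authors' counting divided reads that fit both was not tested, so the split between them is uncertain. Their longest protein-coding transcripts, of 1263 and 1316 nucleotides in GENCODE M21 on GRCm38, were 92.0% identical over 1317 aligned positions, with a longest identical run of 118. The sum of the pair does not depend on that division as long as each shared read was counted once, which was not tested either.

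**Figure D2:**
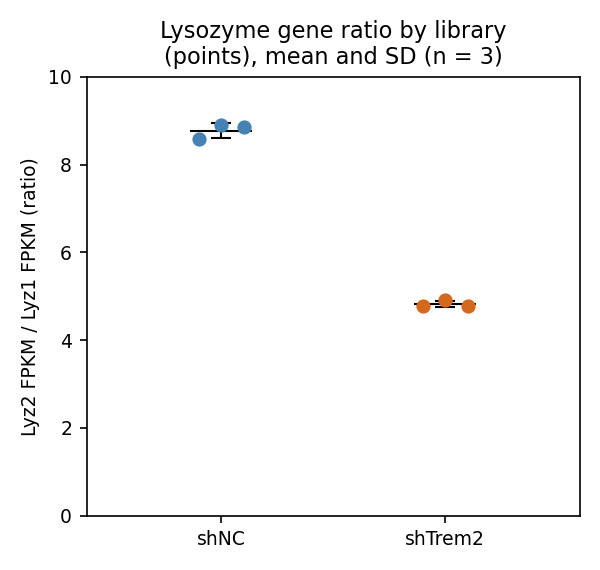
Ratio of Lyz2 FPKM to Lyz1 FPKM in each library (points; linear axis from 0), with the mean and SD of the 3 libraries of each group. The shNC ratios lie between 8.57 and 8.90 and the shTrem2 ratios between 4.77 and 4.91.

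The promoters of the pair are shown because these neighbouring genes were both higher with shTrem2. In the 250 bases before the start, 200 of 252 aligned positions were identical (79.4%), with 4 gap positions. Identity was 92.0% over the last 100 aligned bases and 100% over the last 50, which are therefore not shown. Each line gives the bases from 250 to 51 before the start on GRCm38.p6, minus strand, 5′ to 3′, with the bases that differ from the other gene or face a gap in capitals.
Lyz1, chr10:117292919-117293118: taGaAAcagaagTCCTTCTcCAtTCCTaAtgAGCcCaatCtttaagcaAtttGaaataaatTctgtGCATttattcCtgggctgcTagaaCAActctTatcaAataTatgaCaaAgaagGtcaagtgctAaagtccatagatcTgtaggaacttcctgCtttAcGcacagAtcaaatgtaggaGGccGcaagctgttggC
Lyz2, chr10:117282323-117282522: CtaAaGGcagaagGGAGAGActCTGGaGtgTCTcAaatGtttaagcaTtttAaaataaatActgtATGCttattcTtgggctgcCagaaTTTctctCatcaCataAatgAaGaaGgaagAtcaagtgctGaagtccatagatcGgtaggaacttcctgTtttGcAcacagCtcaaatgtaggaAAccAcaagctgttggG

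The C/EBP match of Lyz1 covers one position at which Lyz2 differs, and Lyz2 had no match in its window. Which of these bases bear on the levels was not tested.

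Camp (ENSMUSG00000038357) and Ltf (ENSMUSG00000032496), both on chromosome 9, were at 0 in all 6 libraries over 1 and 12 transcript rows. A library with 0 reads of a gene may still hold it at up to 3 counts, which is 0.153 CPM in the deepest library and 0.189 CPM in the shallowest. A lower level was not detectable here, and no fold change is given. Of the set, these were the only genes not detected in any library.

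Compared per transcript length, the order of levels in shNC was Lyz2, Lyz1, Slpi and then Saa3 and Lcn2, with no overlap between neighbours except between the last pair. Saa3 stood at 27.1, 29.0 and 18.1 FPKM and Lcn2 at 28.5, 24.8 and 18.5 FPKM, so these neighbours did not differ beyond their spread. In shTrem2, Slpi at 7.10, 6.75 and 7.29 FPKM lay within the range of Saa3 at 6.46, 15.4 and 5.58 FPKM, and Lcn2 came last of the detected genes. Slpi was 4.40, 4.84 and 5.97 times as abundant as Lcn2 in the shNC libraries. The lysozyme pair kept the top places in both groups.

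**Figure D3:**
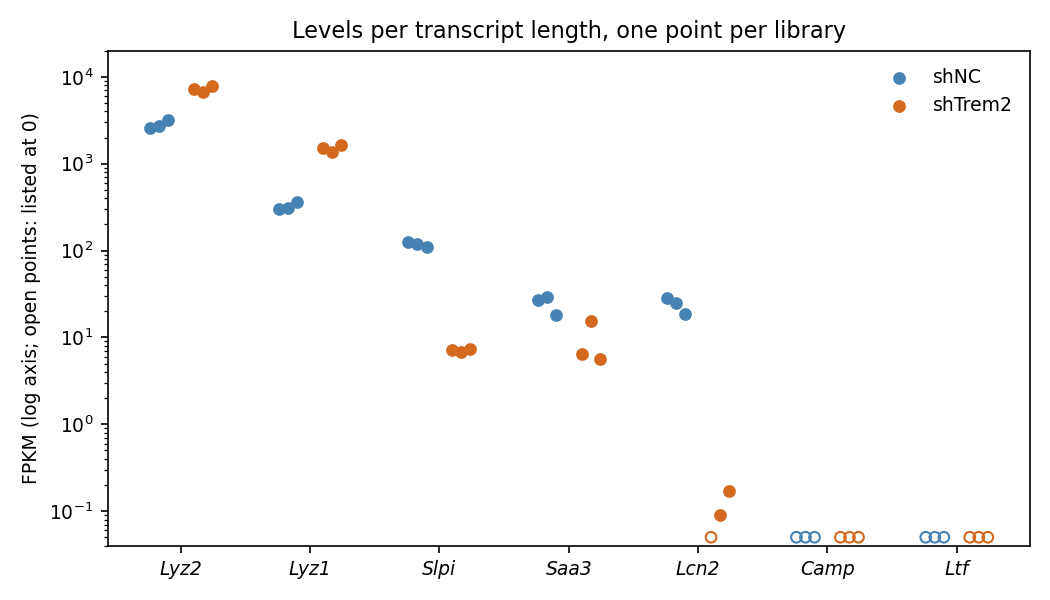
FPKM of the 7 genes in each library on a log axis, with open points at the bottom for values listed at 0. Slpi drops from the level between Lyz1 and Saa3 to the level of Saa3, Lcn2 drops to 0.17 FPKM or less, and Camp and Ltf are at 0 in all libraries.

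In the edgeR fit over all genes, called means a Benjamini-Hochberg FDR under 0.05 with a fold change over 1.5 and 21.8% of tested genes were called. Of the tested genes 12.4% were called lower and 9.46% higher in shTrem2, and the CPM of the groups did not overlap for 63.5%. Of the 7 genes, 5 passed the filter on low counts, and these 5 were called and did not overlap, 3 lower and 2 higher. Since the set was picked on this contrast, nothing is read from these counts. In bulk RNA, fewer cells that express a gene and less RNA per cell cannot be told apart.

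Slpi and Lcn2 were also compared with every other gene by the shape of their profile over the 6 libraries. The measure was the root mean square difference between log2 CPM profiles, each centred on its own mean, over the genes with mean log2 CPM over the libraries of at least 3, 9547 for Slpi and 9548 for Lcn2. The genes closest to Slpi were Plk2 at 0.253, Epha2 at 0.281, Ptgs2 at 0.375 and Il4i1 at 0.511. Plk2, a polo-like kinase, was at 45.9 ± 5.41 CPM in shNC and 1.98 ± 0.396 in shTrem2 (SD, n = 3). Epha2, an ephrin receptor, was at 41.3 ± 7.44 and 2.34 ± 0.534 CPM. Ptgs2, the inducible cyclooxygenase, was at 254 ± 66.5 and 21.9 ± 0.828 CPM, and Il4i1, an amino acid oxidase, at 62.9 ± 3.88 and 6.90 ± 1.13 CPM. With a minimum on edgeR's average log CPM instead, a choice made after seeing the data, Bcl6b at 0.394 took the place of Il4i1. For Lcn2 the closest were Plk2 at 1.07, Slpi at 1.23, Epha2 at 1.31 and Ptgs2 at 1.55 (log2 units). The distances for Lcn2 were larger, since Lcn2 had the lowest fold change of all. With 0, 1 and 2 reads of Lcn2 in shTrem2, these distances also depend on the handling of counts near 0. The 6 points share their 2 groups, so such profiles chiefly record the size of the group difference.

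Around these genes, 9 lists of relatives, ligands, receptors and regulators held 166 genes. Of these, 87 were tested, and 10 were called higher and 31 lower in shTrem2, or 47.1% beside 21.8% of all tested genes. Where the genes of a list are counted below, fell and rose mean called lower and called higher. The median log2 fold change of all tested genes was near 0. Adjusted p-values are those of the edgeR quasi-likelihood fit, adjusted by Benjamini-Hochberg over all tested genes. The lists were written with earlier results of these data known, and nothing particular to a list is read from its counts.

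Of 35 listed protease inhibitors like Slpi, 13 were tested, 6 fell and 2 rose, with a median log2 fold change of −0.20. Serpinb6b, an intracellular serpin, fell from 50.0 ± 4.77 to 6.91 ± 0.927 CPM (log2 fold change −2.82, adjusted p = 2.90e-10). Serpinb9b fell from 1.90 to 0.426 CPM (−2.10, adjusted p = 5.17e-04). Tfpi, the inhibitor of tissue factor, rose from 0.296 to 1.11 CPM (1.94, adjusted p = 0.00245) on 2 to 24 reads per library, but was not called on log2(FPKM + 1), where its adjusted p was 0.348. Among the WAP domain relatives of Slpi, Wfdc17 was the one with appreciable reads. It was named after its values were seen, and it fell from 19.1, 18.4 and 19.1 CPM to 7.86, 8.27 and 6.51 CPM (−1.29, adjusted p = 4.48e-07). The other 8 Wfdc genes of the list had 3 reads or fewer in each library. Cst3, the cystatin C gene, was higher in shTrem2 at 1044 and 1430 CPM (log2 fold change 0.49, adjusted p = 1.60e-06). It was under the fold threshold and so was not called.

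Neutrophil serine proteases were hardly present. Elane, neutrophil elastase, the main target of Slpi, had at most 2 reads in a library, Ctsg, cathepsin G, had none, and Prtn3, proteinase 3, had between 1 and 7. The list of proteases and Slpi ligands had 4 of 10 genes tested, and none was called, although 3 had an adjusted p under 0.05 without passing the fold change. Grn, the progranulin gene, whose product Slpi protects from elastase, was at 827 and 822 CPM (log2 fold change 0.03). Plscr1, a scramblase reported to bind Slpi, had a log2 fold change of 0.55 (adjusted p = 0.00362). It passed the threshold without shNC replicate 1 or without shNC replicate 3, at 0.60 and 0.59.

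Among receptors of lipocalin 2 and genes of iron withholding, 8 of 12 were tested and 6 fell, with none higher and a median log2 fold change of −0.66. Slc40a1, ferroportin, which exports iron from macrophages, fell from 5.17, 8.55 and 6.03 CPM to 2.52, 1.86 and 1.88 CPM (−1.62, adjusted p = 3.75e-05). Trf, transferrin, fell from 7.34 ± 0.156 to 2.99 CPM (−1.26, adjusted p = 1.92e-05). Fth1, the ferritin heavy chain, which has many pseudogenes that can share its reads, fell from 4513 to 2744 CPM (−0.68, adjusted p = 4.52e-08). Slc22a17, the receptor through which cells take up lipocalin 2, was low and was called lower at 1.43 ± 0.350 and 0.531 ± 0.400 CPM (−1.37, adjusted p = 0.0199). That call was lost without shNC replicate 1 (adjusted p = 0.0858), without shTrem2 replicate 2 (0.0714) or without shTrem2 replicate 3 (0.0757). Lrp2, megalin, the other lipocalin 2 receptor, had 8 reads or fewer per library and was not tested. Tfrc, the transferrin receptor, was higher in shTrem2 at 185 and 251 CPM (0.48, adjusted p = 8.76e-04) but was under the fold threshold and so was not called. Slc11a1, another of the genes that fell (−0.59), was under the fold threshold without shNC replicate 1 (−0.57) or shTrem2 replicate 2 (−0.58). It was also under that threshold on log2(FPKM + 1) and log2(FPKM + 0.1).

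Of 13 relatives of lipocalin 2 in the lipocalin and calycin families, 7 were tested. Ptgds, the lipocalin-type prostaglandin D synthase, fell from 14, 13 and 15 reads to 3, 4 and 0 (−2.66, adjusted p = 0.00187). Ambp, the precursor of α1-microglobulin, rose from 2.10 to 5.49 CPM (1.42, adjusted p = 4.33e-05). Fabp5, a fatty acid binding protein, rose from 260 ± 6.20 to 574 ± 58.0 CPM (1.18, adjusted p = 5.07e-09). The family thus held both directions, and its median log2 fold change was −0.22.

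Of 15 acute phase genes, 3 were tested and each was called. Cp, ceruloplasmin, a copper ferroxidase, fell from 147, 149 and 146 CPM to 49.4, 50.7 and 48.7 CPM (−1.54, adjusted p = 8.54e-11). C3, the central complement component, fell from 122 ± 6.97 to 43.3 CPM (−1.46, adjusted p = 6.51e-10). Cfb, complement factor B, rose from 4.94 to 8.25 CPM (0.77, adjusted p = 0.00130). Of the serum amyloid A relatives of Saa3, Saa1 had no reads and Saa2 had 2 or fewer per library. None of the 8 further lysozyme family genes had enough reads to be tested.

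Of 28 other antimicrobial effectors, 13 were tested, 3 fell and 1 rose, with a median log2 fold change of −0.14. Acod1, which makes the antimicrobial metabolite itaconate, fell from 457, 463 and 433 CPM to 52.9, 44.6 and 65.8 CPM (−3.02, adjusted p = 9.47e-11). Nos2, inducible nitric oxide synthase, fell from 89.3, 82.7 and 63.1 CPM to 25.5, 24.4 and 21.2 CPM (−1.69, adjusted p = 3.17e-08). Rnase4, a secreted ribonuclease, fell from 62.4 to 40.2 CPM (−0.60, adjusted p = 6.75e-06) but was under the fold threshold without shNC replicate 3 (−0.53) or shTrem2 replicate 3 (−0.58). Pla2g2d, a secreted phospholipase, rose from 0.431 to 1.27 CPM (1.59, adjusted p = 0.00493). The NADPH oxidase genes were high and not called, with Cybb at 1461 and 1552 CPM (log2 fold change 0.12) and Cyba at 167.2 and 167.1 CPM (0.03). Mpeg1, the pore-forming perforin-2, was higher in shTrem2 at 458 and 635 CPM (0.50, adjusted p = 3.77e-06) but was under the fold threshold and so was not called.

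Of 20 regulators known to act on Lcn2, Slpi or Saa3, 19 were tested, 9 fell and 1 rose, with a median log2 fold change of −0.37. Bcl3, an atypical IkB protein that partners NF-kB p50 and p52, fell from 11.6, 9.61 and 10.7 CPM to 2.16, 2.58 and 2.34 CPM (−2.13, adjusted p = 9.96e-08). Nfkbiz, which encodes IkB-zeta, a nuclear cofactor needed for Lcn2 induction, fell from 94.6, 93.9 and 71.8 CPM to 35.2, 33.7 and 33.6 CPM (−1.31, adjusted p = 5.08e-08). Rel, the c-Rel subunit, fell from 264, 249 and 189 CPM to 90.4, 96.2 and 92.7 CPM (−1.29, adjusted p = 7.21e-08). By contrast, genes named after their values were seen included Rela at a log2 fold change of 0.02 and Cebpb at 0.07, with adjusted p-values of 0.830 and 0.386. Zc3h12a, which encodes the RNase regnase-1, was also named in this way and was called lower (−1.11, adjusted p = 1.84e-06). Gfi1, another of the 9, at 2.03 and 0.907 CPM, lost its call without shNC replicate 1 (adjusted p = 0.0785) or shTrem2 replicate 1 (0.0725). Its call was also lost on log2(FPKM + 1) and log2(FPKM + 0.1). Of the other C/EBP genes of the list, Cebpe was called lower at 3.64 and 1.67 CPM (−1.09, adjusted p = 0.00258). Cebpd was lower but under the fold threshold (−0.37, adjusted p = 0.00405), and Cebpa was not called (−0.13, adjusted p = 0.346). The list thus held falls in several NF-kB family genes and in Cebpe, while Rela and Cebpb were not called.

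Of 25 upstream cytokines, receptors and adaptors, 20 were tested, 4 fell and 3 rose, with a median log2 fold change of 0.11. Irak2, a kinase of the Toll-like and IL-1 receptor pathway, fell from 170, 167 and 143 CPM to 47.0, 46.8 and 45.3 CPM (−1.75, adjusted p = 2.90e-10). Il17ra, the receptor for IL-17, a known inducer of Lcn2, rose from 20.7, 17.5 and 18.4 CPM to 65.0, 55.7 and 60.9 CPM (1.72, adjusted p = 1.49e-09). In FPKM that rise was 1.80-fold on the means, against 3.21-fold in CPM, from 4.99, 5.67 and 5.68 to 11.85, 8.44 and 9.20. Tnf fell from 342, 334 and 297 CPM to 158, 134 and 161 CPM (−1.07, adjusted p = 2.88e-08), and Il10ra, the IL-10 receptor chain, from 68.7 to 34.3 CPM (−0.97, adjusted p = 1.07e-08). Other inducers of these genes were scarce, with at most 12 reads per library for Il1b, 3 for Il1a and 2 for Il6. Myd88, the adaptor of most Toll-like receptors, was at 59.4 and 65.4 CPM (0.17, adjusted p = 0.0162), under the fold threshold, and was not called.

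**Figure D4:**
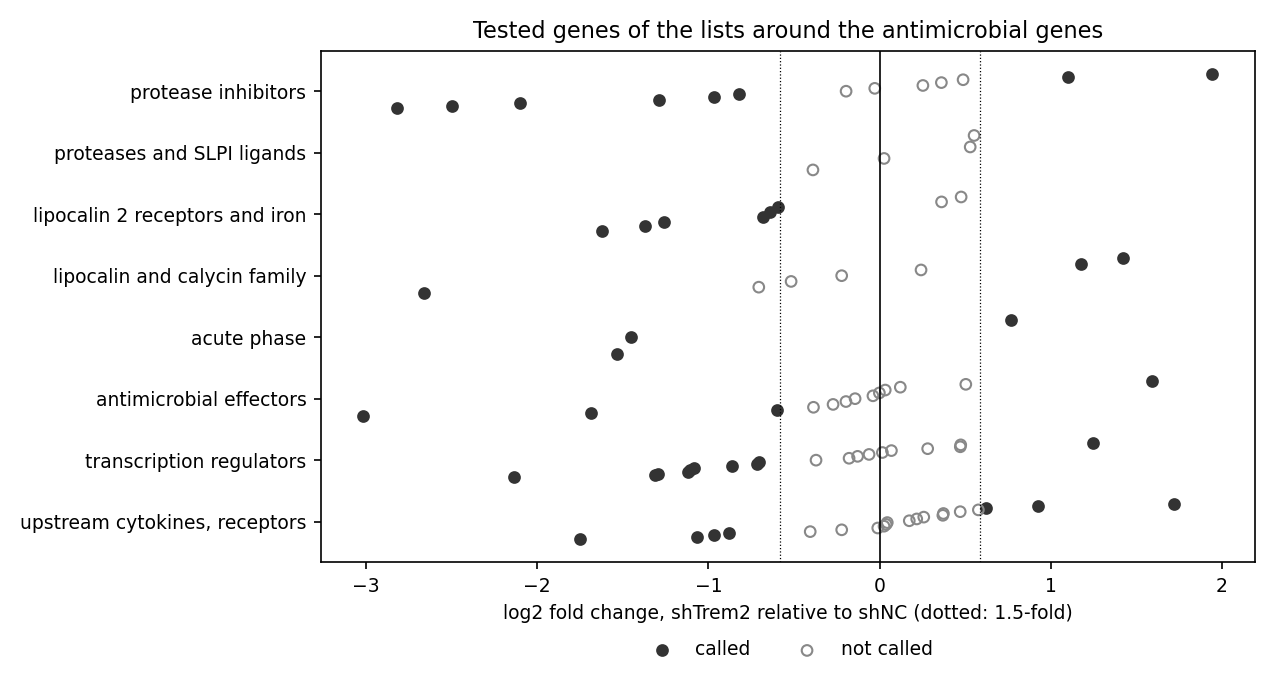
Log2 fold change of shTrem2 relative to shNC for each tested gene of the lists (x axis), one row per list, with filled points for called genes and dotted lines at a 1.5-fold change. The row of lipocalin 2 receptors and iron genes has called points on the lower side only, whereas the protease inhibitors and lipocalins have them on both sides.

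Since Slpi, Lcn2, Camp and Ltf are also neutrophil genes and the debris came from tubular cells, markers of both cell types were read in the same libraries. Of 12 neutrophil markers, S100a9, Mpo, Ngp, Retnlg and Mmp8 were at 0 in all libraries, and 8 had 3 reads or fewer in each. The summed neutrophil level fell from between 30.9 and 32.5 CPM to between 7.55 and 11.4 CPM. Nearly all of it was Csf3r, the G-CSF receptor, which macrophages also express and which fell with Slpi and Lcn2 (log2 fold change −1.81, adjusted p = 9.23e-08). Without Csf3r the sum lay between 0.567 and 0.843 CPM in shNC and between 0.310 and 0.719 CPM in shTrem2. Of 15 tubular epithelial markers, 9 were at 0 in all libraries, including Epcam, Cdh1, Krt8, Krt18 and Havcr1, and 13 had 3 reads or fewer in each. Their sum was between 0.618 and 1.26 CPM in shNC and between 2.21 and 2.94 CPM in shTrem2, and without Aqp1 between 0.281 and 0.663 CPM and between 0.254 and 0.362 CPM. Aqp1, a water channel, had up to 50 reads and was called higher (log2 fold change 2.30, adjusted p = 1.61e-04). Apart from Csf3r and Aqp1, no marker of either list had more than 8 reads in a library. Of 10 macrophage markers, all but Mertk had more than 3 reads, and their sum was between 3259 and 3611 CPM in shNC and between 4161 and 4438 CPM in shTrem2. The sum moved in the direction of the lysozymes, but single markers went both ways, and of the 9 tested 3 were called higher and 1 lower. Csf1r was at 1070 and 1767 CPM (0.76, adjusted p = 5.15e-08), whereas Itgam was at 471 and 267 CPM (−0.78, adjusted p = 8.43e-09). Adgre1, at 127 and 84.4 CPM, was lower but under the fold threshold and so was not called (−0.56, adjusted p = 3.54e-05). The part of these markers in the rise of Lyz1 and Lyz2 was not tested.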

How the data were processed

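Poly(A) RNA of 6 RAW264.7 libraries was sequenced as stranded paired-end reads. Per the labels and the study's methods, reads were processed with fastp, HISAT2 and StringTie on GRCm39, and the counting tool, versions and annotation release are not given in the sources used here. The authors deposited estimated counts per transcript, unscaled for depth or length, of which 79.3% of nonzero values were not whole, and FPKM values per gene. The authors' group means were not used, and 0 columns of per-sample values were left unused.

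Counts were summed per gene symbol, with 311 symbols covering several identifiers, and rounded. Rows without a symbol (0.908% to 1.12% of counts) were left out. Groups came from the shRNA in the labels. edgeR 4.0.16 in R 4.3.3 (TMM, filterByExpr, glmQLFit, glmQLFTest, no covariates) was fitted over 13528 genes, after tests on simulated data. CPM values are relative to named counts, and intervals and the limit of 3 counts cover counting error only, since reads carry no molecular identifiers. Each SE is the absolute log2 fold change divided by the square root of its quasi-likelihood F, and not a fitted standard error of the coefficient. The genes and lists were chosen with earlier results of these data known. Named genes are the set, Trem2, up to 4 called genes with the largest changes per list, and the 4 profiles nearest to Slpi and to Lcn2. Other listed genes, markers and neighbours were named after their values were seen. A few genes that this rule picks are not reported here. The alternatives were DESeq2 1.42.0, other scalings, filters and thresholds, limma-trend (limma 3.58.1) on log2(FPKM + 1) and log2(FPKM + 0.1), a replicate block and each library left out. The leave-one-out of the Lyz2 to Lyz1 ratio and another level filter for the profiles were added after seeing the data.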

Additional observations from a re-analysis of the deposited data

How the results depend on the processing

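Slpi, Lcn2 and Saa3 were lower and Lyz1 and Lyz2 higher in shTrem2 under every alternative that gave a value. Under limma-trend on log2(FPKM + 1), which compresses low values, the log2 fold change was −3.89 for Slpi and −4.50 for Lcn2. On log2(FPKM + 0.1) that of Lcn2 was −7.10, and with 1 library left out it ranged from −8.74 to −7.37. Lcn2 could not be tested with at least 10 counts in every sample, and Camp and Ltf gave no value. The calls over all genes numbered 1339 with a fold change over 2 and 7763 with no fold threshold, against 2951, and those in the 9 lists 27 and 68, against 41. Genes called higher numbered 852 on log2(FPKM + 1) against 1280. Deviations from the group mean were hardly correlated between same-number replicates (−0.0029, −0.017 and −0.0128), and between different numbers they ran from −0.0376 to 0.0474. With 3 libraries per group this cannot settle whether the samples were paired. With a replicate block Saa3 was at −1.46 and Lcn2 at −7.90. Depth limits Lcn2 in shTrem2, Camp and Ltf.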

Other observations

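Genes that lie next to Slpi, Lcn2, Saa3, Lyz1 and Lyz2 on the chromosome were read after the data were seen, as the 2 nearest tested genes on each side in the RefSeq order. Of 16 such neighbours, 4 were called by edgeR, a share close to the 21.8% of all tested genes, and these 4 were lower in shTrem2. Matn4, a matrilin gene next to Slpi, averaged 0.869 ± 0.180 and 0.0681 ± 0.0776 CPM with shNC and shTrem2 (SD, n = 3), with a log2 fold change of −3.51 and an adjusted p of 3.73e-04. Tomm34, also near Slpi, which encodes a mitochondrial import factor, had a log2 fold change of −0.62. Dnm1, the dynamin 1 gene near Lcn2, was at 14.9 ± 2.12 and 6.84 ± 2.73 CPM (−1.09). Mdm2, the p53 ubiquitin ligase near Lyz1, was at 213 ± 19.2 and 83.9 ± 0.968 CPM (−1.31). Cpsf6, between Mdm2 and Lyz1, was at 184 and 229 CPM (0.35, adjusted p = 1.07e-05), under the fold threshold, and was not called. The neighbours of Lyz1 and Lyz2 thus did not share their rise past the threshold.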
